A study of Mus musculus with 2 samples.

Results

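Pericytes of pancreatic islets were taken from single-cell RNA sequencing of islets of NOD/ShiLtJ mice as the cell barcodes that carried pericyte transcripts and few transcripts of other cell types. A member had at least 1000 UMIs (unique molecular identifiers, each marking a captured mRNA molecule), at least 200 genes, at most 20% mitochondrial UMIs and under 10% islet hormone UMIs. It also had at least 3 UMIs of Rgs5, Kcnj8 and Ndufa4l2 together and at least 2 of Pdgfrb, Notch3, Myl9, Des and Mcam together. Limits on other cell types were at most 1 UMI of Pecam1 and Cdh5, at most 1 of Cd3d, Cd3e and Cd3g, 0 of Cd79a and Ms4a1, and at most 3 of C1qa, C1qb and C1qc. The rule chose 89 of the 7213 barcodes kept in the gluten library and 68 of the 7347 kept in the HC library, 157 of 14560 in all. Expression of the cells themselves chose them, so their levels beside other cells are a description.

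The mice were 15 weeks old and wild type on the NOD background, a strain that develops autoimmune diabetes spontaneously. The gluten group ate a diet labelled 16% HC with 4% gluten, and the HC group a diet labelled 20% HC; the labels do not spell out HC. Each diet is 1 library that pools cells of 3 mice. Animals therefore cannot be told apart within a library, no test between diets is possible, and every interval covers counting error only.

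Pericytes are mural cells that share the basement membrane of capillaries with the endothelium and are held there by PDGF-B signalling through the receptor Pdgfrb. In the islet they adjust capillary width, deposit matrix and release factors that act on beta cells in mice. Vascular smooth muscle cells of arterioles form a continuum with them and carry more of the contractile proteins.

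The gluten library held 8200 barcodes with 88268070 UMIs and the HC library 7758 barcodes with 116900677 UMIs. Of all barcodes, 15 occurred in both libraries, and 0 of the pericyte barcodes were among them. Free RNA reached the pericytes as it did other cells. The 5 islet hormone genes together stood at 11343 CPM (UMIs per 1000000 UMIs summed over a set of cells) in pericytes of the gluten library and 4994 in those of the HC library, against 14994 and 8679 in B cells.

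The rule took in 2 kinds of cells. Some members also carried genes of fibroblasts, above all Dcn, which encodes the collagen-binding proteoglycan decorin. In the gluten library 29 of 89 members (32.6%, exact Clopper-Pearson 95% interval 23.02 to 43.3) had 3 or more UMIs of Dcn, Lum and Pdgfra together, and in the HC library 37 of 68 (54.4%, 41.9 to 66.5). The other 60 members of the gluten library had 0 or 1 such UMI, and the other 31 of the HC library had 0. No member lay between 1 and 3 of them, and this division was chosen after the values were seen. The cells with fibroblast genes held 55.7% of the members' UMIs in the gluten library and 78.5% in the HC library, so summed values over all members are mostly theirs. Those cells are called fibroblast-gene carriers here, and the 60 and 31 without such genes core pericytes.

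The fibroblast-gene carriers had a median of 7167 UMIs per cell in the gluten library and 12293 in the HC library, against 2458.5 and 3674 in core pericytes. Their median Dcn count was 50 UMIs with gluten and 52 with HC, while their median Rgs5 count was 4 and 5. Among the genes furthest above the core, Apoe, a lipid carrier protein, stood at 19566 CPM in carriers against 125 in core pericytes of the gluten library, and at 25051 against 24.8 in the HC library. C3, the central complement protein, stood at 3175 against 23.9 in the gluten library and at 3101 against 8.25 in the HC library. Clu, Cpxm1, Ptn, Dpt, Col1a1 and Il33 were high in the same way, and so was Lum, which helped make the split. The 7 fibroblast markers together came to 11470.3 and 9207 CPM in carriers, with gluten and with HC. In core pericytes they came to 71.6 with gluten, and all 7 were at 0 with HC. Dcn, Lum and Pdgfra are among the 7 and made the split, so their low level in the core was set by choice.

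Some genes of mural cells ran the other way. Cspg4, which encodes the pericyte proteoglycan NG2, had 58 and 26 UMIs in core pericytes and 0 in carriers of either library. The same held for Casq2, a calcium-binding protein of the sarcoplasmic reticulum, with 42 and 32 UMIs in the core and 0 in carriers. Ednrb, the endothelin B receptor, had 812 CPM in the core and 4.75 in carriers with gluten, and 561 and 11.3 with HC. These genes were picked for their distance from carriers, and other mural genes were present there. Tagln, an actin-binding protein of smooth muscle, was seen in 23 of 29 and 29 of 37 carriers. It stood at 1331 and 1496 CPM there, 2884 and 5816.5 in the core, and 430 and 488 in fibroblast-like cells outside the rule. Abcc9, a potassium channel subunit, was seen in 9 of 29 and 16 of 37 carriers, which were deeper than core cells. It stood at 57.0 and 72.4 CPM in carriers, 424 and 272 in the core, and 48.8 and 24.9 in fibroblast-like cells. Both genes were thus found in fibroblast-like cells too. Carriers held UMIs of both kinds of genes, and what they are was not tested. Values below are for core pericytes unless the whole rule is named.

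**Figure D1:**
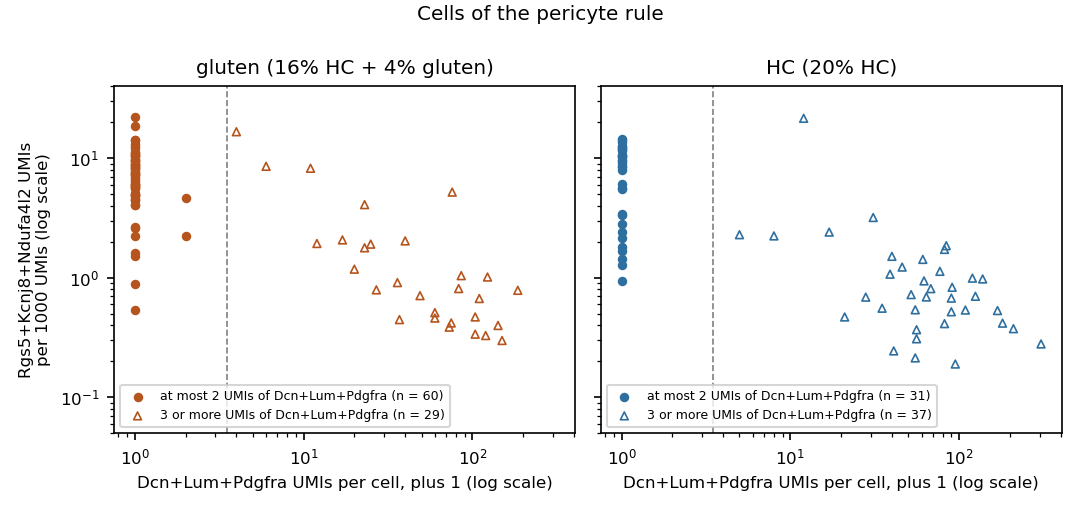
Each point is 1 cell of the pericyte rule, gluten library left and HC library right; the x axis is the UMIs of Dcn, Lum and Pdgfra plus 1, the y axis the UMIs of Rgs5, Kcnj8 and Ndufa4l2 per 1000 UMIs, both on log scales. Filled circles are the 60 and 31 core pericytes with 0 or 1 fibroblast-gene UMIs, and open triangles the 29 and 37 carriers, most of which lie lower on the y axis.

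The threshold on Rgs5, Kcnj8 and Ndufa4l2 ran through the carriers. Just inside it, with a sum of 3, lay 8 cells of the gluten library and 4 of the HC library, of which 6 and 4 had fibroblast genes. Just outside it, with a sum of 2 and all other conditions met, lay 16 and 8 cells, and all 16 and all 8 had fibroblast genes. Both marker sums were met by 154 barcodes with gluten and 118 with HC; 48 and 16 of them were lost to the limit on Pecam1 and Cdh5, and 17 and 34 to the T cell, B cell or C1q limits alone.

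As a set, core pericytes carried all 5 pericyte markers, but single cells did not each carry all of them. With gluten, a Kcnj8 UMI was seen in 30 of 60 core cells and a Pdgfrb UMI in 46. With HC, a Kcnj8 UMI was seen in 12 of 31 and a Pdgfrb UMI in 23. Rgs5, a regulator of G-protein signalling that marks pericytes, had a median of 9 UMIs per cell (range 0 to 55) in the gluten library and 18 (0 to 63) in the HC library, and was seen in 59 of 60 and 30 of 31 cells. Summed over the cells it stood at 4919.9 and 4843 CPM. Ndufa4l2, a hypoxia-inducible mitochondrial protein, stood at 1845 and 1922, Notch3, the Notch receptor of mural cells, at 711 and 809, and Pdgfrb at 675 and 792. Kcnj8, the pore subunit of the ATP-sensitive potassium channel of mural cells, stood at 376 and 330.0. All 5 markers were detected in both libraries and had log2 ratios of gluten over HC between -0.23 and 0.19, each with a counting interval that contains 0. The rule used these genes, so their presence is not a finding.

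Genes outside the rule filled in the mural identity. Among the 20 genes with the highest core level relative to all other kept barcodes were Cox4i2, an alternative subunit of cytochrome oxidase, Higd1b, Abcc9, the sulfonylurea receptor subunit that pairs with Kcnj8, Cspg4, Aspn, Aoc3, Ednra and the contractile genes Lmod1, Casq2, Acta2, Myh11, Tpm2 and Pdlim3. Map3k7cl, Ephx3, Nrip2, Rasl12, Vstm4 and the transcript Gm13861 were in the same 20. The olfactory receptor gene Olfr558 was another, with 41 UMIs in the gluten library and 65 in the HC library and 0 in carriers of both. Cox4i2 stood at 1343 CPM with gluten and 1832 with HC in the core, against 11.9 and 2.18 in endothelial cells and 2.17 and 1.66 in fibroblast-like cells. Higd1b stood at 591 and 660.0 in the core, against 2.38 and 0 in endothelial cells and 1.08 and 3.32 in fibroblast-like cells. Mgp, matrix Gla protein, which binds BMPs and inhibits calcification, stood at 14748 and 13877 in the core, against 70.5 and 15.2 in endothelial and 2302 and 1229 in fibroblast-like cells.

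The comparison cells were chosen by rules too, so low Pdgfrb, Des, Kcnj8 and Ndufa4l2 in the 252 and 128 endothelial cells, and low Rgs5, Kcnj8 and Ndufa4l2 in the 123 and 63 fibroblast-like cells, are set by choice. Of the 4785 genes with 10 or more UMIs in the core of both libraries together, 42.7% were at least 2-fold above all other kept barcodes in both libraries, 16.8% at least 2-fold above endothelial cells and 14.9% above fibroblast-like cells. Of 23 measured pericyte identity genes outside the rule, 22 were 2-fold above all other barcodes, 23 above endothelial and 16 above fibroblast-like cells. Those not 2-fold above fibroblast-like cells included Vtn, vitronectin, at 860 and 347 CPM in the core and 270.0 and 324 in fibroblast-like cells.

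**Figure D2:**
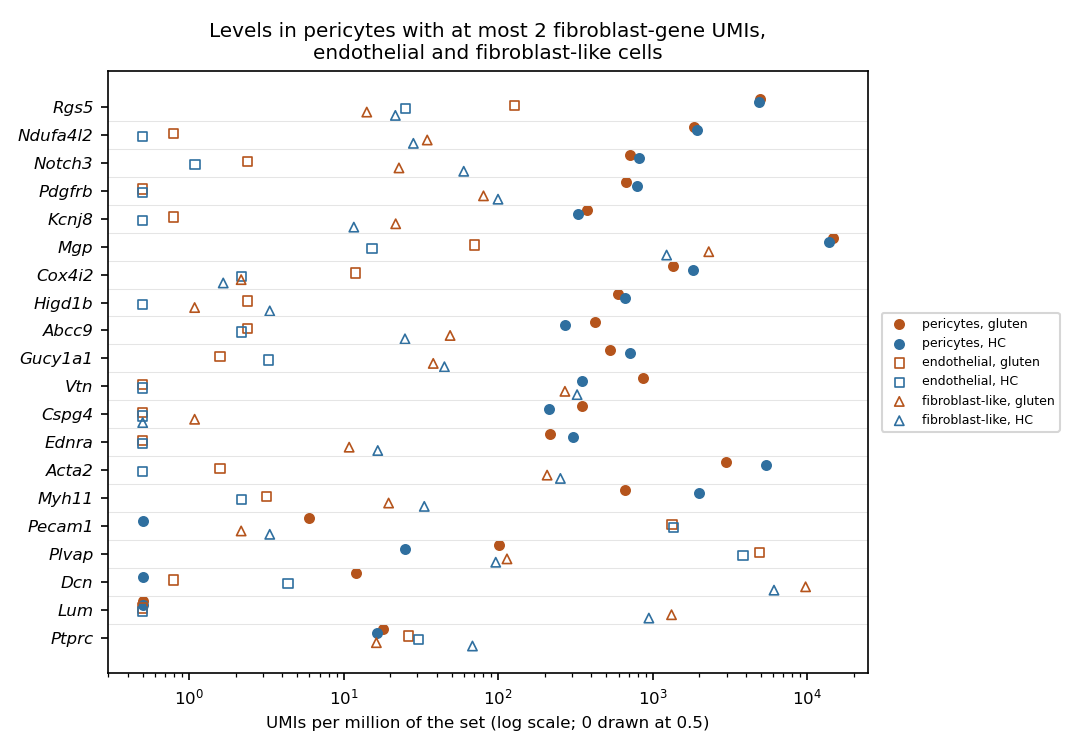
CPM, on a log axis with 0 drawn at 0.5, of 20 genes in core pericytes (filled circles), endothelial cells (open squares) and fibroblast-like cells (open triangles), gluten library in orange and HC library in blue. In the 15 mural genes from Rgs5 to Myh11 the core lies above both other sets in both libraries, while Pecam1 and Plvap are high in endothelial cells and Dcn and Lum in fibroblast-like cells. Rgs5, Ndufa4l2, Notch3, Pdgfrb, Kcnj8, Pecam1, Dcn and Lum were among the genes that chose these cells.

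Vasoactive receptors and channels were part of that profile. Of 20 measured members, which include Rgs5 and Kcnj8 of the rule, 19 were 2-fold above all other barcodes, all 20 above endothelial cells and 19 above fibroblast-like cells. The same shares over all 4785 genes were 42.7%, 16.8% and 14.9%. Gucy1a1 and Gucy1b1, the subunits of the nitric oxide receptor guanylate cyclase, stood at 531 and 663 CPM with gluten and at 709.5 and 627 with HC. Ednra, the endothelin A receptor, had 36 and 37 UMIs and 0 in the endothelial cells of both libraries. Agtr1a, the angiotensin II receptor, had 24 and 17 UMIs, Npy1r, a neuropeptide Y receptor, 25 and 28, and Adra2a, an alpha-2 adrenergic receptor, 29 and 14. Pde5a and Pde3a, which break down cyclic nucleotides, had 43 and 36 and 26 and 39 UMIs. The other 20 of the 40 listed genes, among them Adra1b, Adra1d, Agtr1b and Adora1 at 0, had too few UMIs to be measured.

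Receptors and ligands of the Notch and PDGF pathways were both detected. All 7 measured Notch genes, which include Notch3 of the rule, were 2-fold above all other barcodes and above fibroblast-like cells, and 4 were above endothelial cells. Of all 4785 genes, 42.7% were above all other barcodes, 14.9% above fibroblast-like cells and 16.8% above endothelial cells. The target genes Heyl, with 24 and 21 UMIs, and Hes1, with 81 and 70, and the ligand Jag1, with 20 and 27, were detected in both libraries, whereas the ligand Dll4 was at 0 in both. On the PDGF side Pdgfrb was joined by Pdgfa, a ligand, at 388 and 470.3 CPM, while the ligand Pdgfb had 3 and 1 UMIs. Pdgfra was at 0 in both, but the choice of the core kept it low. The growth factors Angpt1, with 7 and 7 UMIs, and Angpt2, with 14 and 11, were low.

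Matrix genes were high in core pericytes. All 19 measured basement membrane genes were 2-fold above all other barcodes, where 42.7% of all genes were. Of the 19, 5 were above endothelial cells, where 16.8% of all genes were. Col4a1, a type IV collagen chain, stood at 967 and 875 CPM in the core against 1793 and 2332 in endothelial cells. Itga7, a laminin receptor subunit, had 23 and 25 UMIs in the core and 0 in endothelial cells of both libraries. Of 16 measured interstitial matrix genes, 15 were above all other barcodes, beside the same 42.7%. Of the 16, 2 were above fibroblast-like cells, where 14.9% of all genes were. Col3a1, a fibrillar collagen, stood at 645 and 495 in the core against 2861 and 2112 in fibroblast-like cells.

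Of the secreted factors on the list, 10 of 29 were measured. Bmp4 and Bmp5, ligands of the BMP pathway, had 12 and 6 and 6 and 6 UMIs. Igfbp7, an insulin-like growth factor binding protein, stood at 6478 and 5173 in the core against 12806 and 13583 in endothelial cells. Cxcl12 had 10 and 9 UMIs in the core, 59.7 and 74.3 CPM, against 1383 and 1516 CPM in fibroblast-like cells.

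Core pericytes spanned a wide contractile range. Acta2, smooth muscle alpha-actin, had a median of 1 UMI per cell (range 0 to 168) with gluten and 3 (0 to 94) with HC. The sum of Acta2, Tagln, an actin-binding protein of smooth muscle, and Myh11, smooth muscle myosin heavy chain, had a median of 0.965 per 1000 UMIs (0 to 64.2) with gluten and 2.56 (0 to 40.7) with HC. At 10 or more per 1000 lay 8 of 60 core cells of the gluten library (13.3%, exact interval 5.94 to 24.6) and 10 of 31 of the HC library (32.3%, 16.7 to 51.4). The difference of gluten minus HC was -18.9 percentage points (Newcombe interval -37.7 to -1.47). The bound of 10 was set after the values were seen and cuts through a range: 8 and 4 core cells lay within a factor of 2 of it. The 6 smooth muscle markers, Acta2, Tagln and Myh11 among them, came to 32466 and 32421 CPM at or above the bound. Below it they came to 1644 and 2684. Whether the cells at or above the bound are pericytes or vascular smooth muscle cells was not tested.

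An Acta2 UMI was seen in 53.3% of core cells with gluten and 71.0% with HC. After each cell was thinned to 1000 UMIs, with 0 cells left out, these shares were 46.7% (33.7 to 60.004) and 51.6% (33.1 to 69.8). The same thinned share was 0.314% and 0.631% in B cells, which should lack the gene and had median depths of 2225 and 2747 UMIs. The thinned shares of core cells with an Acta2 UMI thus overlap between the libraries. In the same draw, 5 or more thinned Acta2 UMIs were seen in 6 of 60 cells with gluten and 11 of 31 with HC. Thinning was 1 random draw, so these numbers also vary by draw. Core cells at or above and below the bound of 10 were thinned in separate draws. With gluten, an Acta2 UMI was then seen in 7 of 8 and 21 of 52 cells, and 5 or more in 6 and 0. With HC, it was seen in 10 of 10 and 9 of 21, and 5 or more in 8 and 0.

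**Figure D3:**
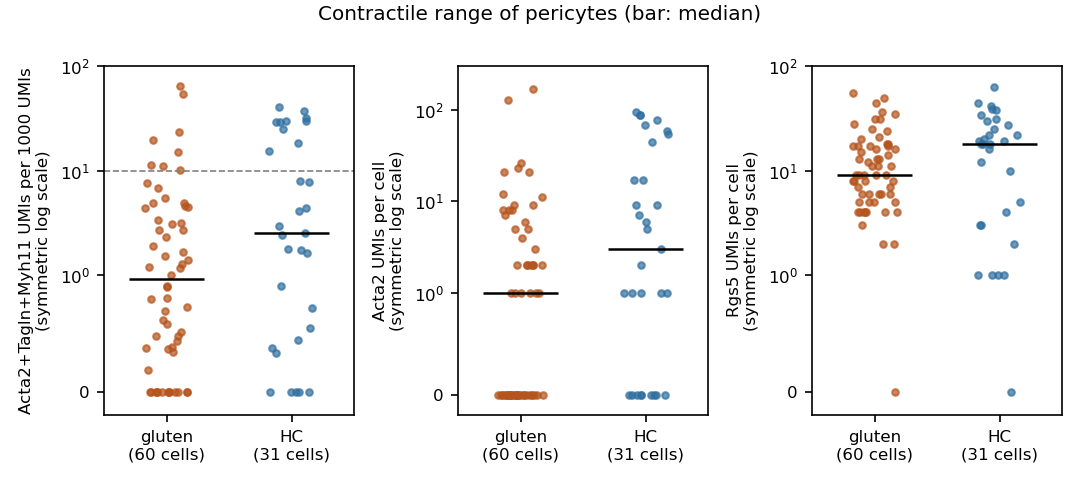
Per-cell values of the 60 core pericytes of the gluten library (left, orange) and the 31 of the HC library (right, blue): UMIs of Acta2, Tagln and Myh11 per 1000 UMIs, Acta2 UMIs and Rgs5 UMIs, on symmetric log axes with the median as a bar. The dashed line at 10 per 1000 has 8 gluten cells and 10 HC cells at or above it.

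The contractile end and the quiet end differed in more than the genes that set them apart. In the 8 and 10 contractile cells Acta2 stood at 14228 CPM with gluten and 12585 with HC, against 718 and 732 in the 52 and 21 quiet cells. Myl9, a myosin light chain that is part of the rule, stood at 5251 and 6197 against 1069.6 and 1084. Tpm2, a tropomyosin outside the rule, stood at 5997 and 5269.9 against 639 and 962. Ckb, brain creatine kinase, stood at 1526 and 1559.9 against 86.1 and 108. Dstn, an actin-severing protein, and Csrp1, an actin-associated LIM protein, were high in the same cells.

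The channel subunits Kcnj8 and Abcc9, and Pdgfrb, lay at the quiet end. Kcnj8, Pdgfrb, Notch3 and Myl9 are part of the rule, and a cell rich in Myl9 could pass it without Pdgfrb. Opposite levels of Myl9 and Pdgfrb may therefore be set in part by choice. Kcnj8 had 63 and 40 UMIs in quiet cells and 0 in contractile cells of both libraries. Abcc9 had 68 and 33 UMIs in quiet cells and 3 and 0 in contractile cells, and Pdgfrb stood at 782 and 1234 CPM in quiet cells against 142 and 105 in contractile cells. Mgp stood at 16834 and 21947 in quiet cells against 4435 and 1328 in contractile cells. Notch3 was at similar levels at both ends, at 852 and 696 CPM in contractile cells and 682 and 881 in quiet cells.

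Promoter sequence of Acta2, one of the 3 genes that define the contractile range, was set beside that of Srf, which encodes serum response factor, the protein that binds the CArG box. Windows of 250 bases before to 50 bases after the annotated start are from RefSeq, build GRCm38.p6, each read 5′ to 3′ on the strand of its gene. Acta2 lies on the minus strand at chr19:34255324-34255623 and Srf on the minus strand at chr17:46556113-46556412. Capitals mark CArG boxes. The 2 boxes of Acta2 start 84 and 34 bases before the start site and each has 1 G or C among the inner bases. The 2 boxes of Srf start 82 and 62 bases before the start site and have none.
Acta2: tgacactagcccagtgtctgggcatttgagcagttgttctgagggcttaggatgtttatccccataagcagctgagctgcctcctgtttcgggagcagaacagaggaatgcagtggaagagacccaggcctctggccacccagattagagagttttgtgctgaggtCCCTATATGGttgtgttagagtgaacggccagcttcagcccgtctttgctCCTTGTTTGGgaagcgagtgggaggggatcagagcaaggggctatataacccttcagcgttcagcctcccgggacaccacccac
Srf: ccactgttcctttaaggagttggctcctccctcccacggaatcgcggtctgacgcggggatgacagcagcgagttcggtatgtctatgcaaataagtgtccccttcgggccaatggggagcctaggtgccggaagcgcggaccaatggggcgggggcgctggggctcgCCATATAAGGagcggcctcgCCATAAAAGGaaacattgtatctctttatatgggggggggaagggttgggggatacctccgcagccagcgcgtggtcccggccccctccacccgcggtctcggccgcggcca

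A strict CArG box lay in the window of 488 of 27025 mouse genes (1.81%), and one with up to 1 inner G or C in 3050 (11.3%), either strand counted. Tagln and Myh11, the other 2, had no matched entry and were not searched. Of the 30 smooth muscle contractile genes 25 matched the table, and 2 of them (8%) held a strict box and 6 (24%) a box with up to 1 inner G or C. Those 6 were Acta2, Myl6, Pdlim3, Crip1, Srf and Mrtfa. Of the 34 immediate early genes 28 matched, with 2 (7.14%) and 7 (25%). Of the 30 pericyte identity genes 22 matched, with 0 and 1, Tbx18 (4.55%). A match is a run of letters in this window only. Srf itself had 6 and 4 UMIs in core pericytes.

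Between the diets, pericytes were 1.23% of kept barcodes with gluten (0.992 to 1.52) and 0.926% with HC (0.719 to 1.17). The difference of 0.308 percentage points had an interval of -0.0285 to 0.651. Core pericytes were 0.832% with gluten (0.635 to 1.07) and 0.422% with HC (0.287 to 0.598), a difference of 0.41 points (0.154 to 0.678). Endothelial cells differed the same way, at 3.49% and 1.74% of kept barcodes, and core pericytes numbered 23.8 per 100 endothelial cells with gluten and 24.2 with HC.

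Over all members of the rule, 4368 genes reached 20 UMIs in the library where they were higher. With gluten, 159 of these (3.64%) stood 2-fold or more above HC and 271 (6.2%) 2-fold or more below it. In core pericytes 1433 genes were measured, with 109 (7.61%) higher and 83 (5.79%) lower. In the quiet core cells alone, the counts were 76 (7.54%) and 19 (1.88%) of 1008. By counting intervals, 6.1% of 8789 genes lay above 0 and 6.09% below over the rule, and 3.59% and 4.29% of 3872 in quiet cells.

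Several of the genes furthest apart over the whole rule were absent from the core. Ccl22, a chemokine of dendritic cells, had 0 UMIs with gluten and 56 with HC, Il12b, a subunit of interleukin-12, 0 and 38, and Ccr7, a migration receptor of dendritic cells, 1 and 26. In core pericytes Ccl22 and Il12b were at 0 in both libraries and Ccr7 had 0 and 1. Ccn5, a matricellular protein, had 18 and 226 UMIs over the rule and 0 in the core. Cxcl14, a chemokine, had 24 and 2 and Lgals7, a galectin, 20 and 0 over the rule, and both were at 0 in the core. Ltbp2, Epsti1, Top2a, Cox6a2, Zmynd15 and Slc7a11, each with 0 to 3 UMIs with gluten and 20 to 62 with HC over the rule, were at 0 in the core of both libraries. Il1b, an inflammatory cytokine, had 21 and 2 UMIs over the rule and 3 and 0 in the core. All 12 of the Il7r UMIs in the HC core were in 1 cell, and Ccl21a, which has near-identical copies, had 20 and 286 UMIs over the rule and 19 and 0 in the core, 18 of the 19 in 1 cell. Ptprc, the pan-leukocyte marker, had 6 and 33 UMIs over the rule, of which the core held 3 and 2; the part of immune cells in these values was not tested.

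Several chemokine genes were higher with gluten in core pericytes. Cxcl10, an interferon-inducible T cell chemokine, had 151 UMIs in 15 cells with gluten and 8 UMIs in 5 cells with HC, a log2 ratio of 3.77 (2.76 to 5.01), and no gluten cell held more than 40 of them. Cxcl1, a neutrophil chemokine, had 54 UMIs in 14 cells and 5 in 2 cells, a log2 ratio of 2.97 (1.66 to 4.65). Cxcl9, a further interferon-inducible chemokine, had 136 UMIs in 11 cells and 22 in 4 cells (log2 ratio 2.16, 1.496 to 2.88), with 68 of the 136 in 1 cell. Ccl2, a monocyte chemokine, had 35 and 2 UMIs (log2 ratio 3.66, 1.70 to 6.76). With 26 of the 35 in 1 cell, most of its count rests on that cell. Without the top cell of each library the log2 ratios were 4.01 for Cxcl10, 3.70 for Cxcl1, 3.30 for Cxcl9 and 2.70 for Ccl2. With each cell weighted equally, as a mean of per-cell CPM, they were 2.70 for Cxcl10 and 1.44 for Cxcl9. Over the whole rule the log2 ratio of Cxcl10 was 1.18 (0.95 to 1.41), that of Ccl2 0.31 (-0.04 to 0.66) and that of Cxcl9 -0.14 (-0.27 to 0.00), on the other side of 0.

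Of the 14 measured chemokine, cytokine and adhesion genes, 12 were higher with gluten, 8 with a counting interval above 0 and none below, beside 5.08% above and 5.33% below of all 4785 genes. Mcam, a gene of the rule, is among the 14. Ccl21a and Ccl2 are among the 8, and most UMIs of each were in 1 cell. The median log2 ratio of the list was 0.76 in the core, against -0.05 over all genes of the core. Ccl11, an eosinophil chemokine, had 58 and 20 UMIs, Il34, a ligand of the macrophage growth factor receptor, 51 and 21, and Vcam1, an adhesion molecule for leukocytes, 17 and 1. Il34 and Vcam1 lay on the other side of 0 over the whole rule, at -0.05 (-0.43 to 0.34) and -0.14 (-0.47 to 0.18). Cxcl12 was one of the 2 genes not higher with gluten, at -0.31 (-1.77 to 1.16). The median of the same list was -0.09 over the whole rule, 0.13 in endothelial cells, 0.12 in fibroblast-like cells and 0.36 in all other kept barcodes. Cxcl10 itself had log2 ratios of 0.34 in endothelial, 0.30 in fibroblast-like and 0.42 in all other cells, and Cxcl9 of -0.83, -0.99 and -0.31. Whether the lists or genes differ between cell types beyond mouse-to-mouse spread was not tested.

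The interferon response list had a median nearer 0. Cxcl9 and Cxcl10 belong to this list and not to the chemokine, cytokine and adhesion list. Of the 28 measured interferon members in the core, 17 were higher with gluten, and the median was 0.13. The interval lay above 0 for 5, Cxcl9 and Cxcl10 among them, and below for none. Of all 4785 core genes, 5.08% lay above and 5.33% below. Irf1, an interferon-induced transcription factor, had 59 and 14 UMIs (log2 ratio 1.61, 0.75 to 2.56), and Gbp4, a guanylate-binding protein, 33 and 7 (1.77, 0.57 to 3.19). Iigp1, an immunity-related GTPase, had 155 and 134 (-0.26, -0.60 to 0.09), but 0.46 (0.22 to 0.70) over the whole rule. The median was -0.29 in endothelial, -0.23 in fibroblast-like and -0.35 in all other cells. Ifitm1, an interferon-induced membrane protein outside the list, had 353 and 96 UMIs in 56 and 19 core cells, a log2 ratio of 1.41 (1.08 to 1.75), against -1.34 in endothelial cells. Fhl2, a LIM domain protein, had 21 and 1 core UMIs and Serpina3g, a protease inhibitor, 26 and 2. Over the whole rule their log2 ratios were 0.13 (-0.42 to 0.68) for Fhl2 and -0.02 (-0.66 to 0.60) for Serpina3g, and that of Ifitm1 was 0.34 (0.20 to 0.49). Rgs1 had 22 and 0, of which 20 were in 1 cell.

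MHC class I genes had a median near 0 in the core. Of 18 measured MHC class I and peptide loading genes, 9 were higher with gluten. The interval lay above 0 for 1 and below for 1, beside 5.08% and 5.33% of all 4785 core genes. The median was 0.03, against -0.16 over the whole rule, -0.39 in endothelial cells and -0.24 in all other cells. B2m, the class I light chain, stood at 2651 and 2401 CPM. H2-K1, a class I heavy chain, stood at 2729 and 1889, a log2 ratio of 0.53 (0.30 to 0.77), but reads of near-identical class I genes cannot always be told apart. Both were lower with gluten over the whole rule, B2m at -0.45 (-0.54 to -0.36) and H2-K1 at -0.14 (-0.23 to -0.05). The 5 measured MHC class II genes were all higher with gluten in the core, with a median of 0.77, against -0.39 over the whole rule. Most MHC class II UMIs came from single cells: 135 of the 188 Cd74 UMIs with gluten and 67 of the 80 with HC were in 1 cell each.

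Immediate early genes, transcription factors and regulators that cells switch on within minutes of a stimulus or of handling, were higher with gluten. In the core, 22 of 30 were higher, 15 with the interval above 0 and 1, Btg2, below, and the median log2 ratio was 0.65. Of all 4785 core genes, 5.08% lay above and 5.33% below. Egr1, a zinc finger transcription factor, had 487 UMIs in 47 cells with gluten and 130 in 18 cells with HC (1.44, 1.16 to 1.73). Gadd45b, a stress sensor, had 149 in 42 cells and 25 in 11 cells (2.11, 1.49 to 2.78), and Ier3 122 in 41 and 22 in 12 (2.00, 1.34 to 2.73). Junb and Fosb, subunits of AP-1, had log2 ratios of 1.07 (0.88 to 1.27) and 1.51 (1.09 to 1.95), whereas Fos had -0.07 (-0.27 to 0.12). Fos and Btg2 were higher with gluten over the whole rule, at 1.011 (0.87 to 1.15) and 0.59 (0.31 to 0.87).

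Every other set of cells had the same direction: the list's median was 1.07 over the whole rule, 1.13 in carriers, 1.00 in endothelial, 0.72 in fibroblast-like and 1.28 in all other kept cells. Heat shock chaperones did likewise, with 14 of 16 higher in the core. Their interval lay above 0 for 9 and below for none, beside 5.08% and 5.33% of all 4785 core genes. Their median was 0.68 in the core, 0.67 in endothelial, 0.95 in fibroblast-like and 0.62 in all other cells. Dnajb1, a chaperone of the heat shock response, had 66 and 15 core UMIs, Hspa5, the chaperone of the endoplasmic reticulum, 226 and 76, and Hspa8 447 and 166. Hspa1a, with 225 and 99 UMIs, shares most of its sequence with Hspa1b and is uncertain. Mt1, a metallothionein, had 37 and 10 UMIs, and Mt2 14 and 0. Gdf15, a stress-induced TGF-beta family member, had 30 and 7 core UMIs, Atf3, a stress-induced transcription factor, 39 and 14, and Klf4 48 and 20. Library handling and diet cannot be told apart for these genes.

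**Figure D4:**
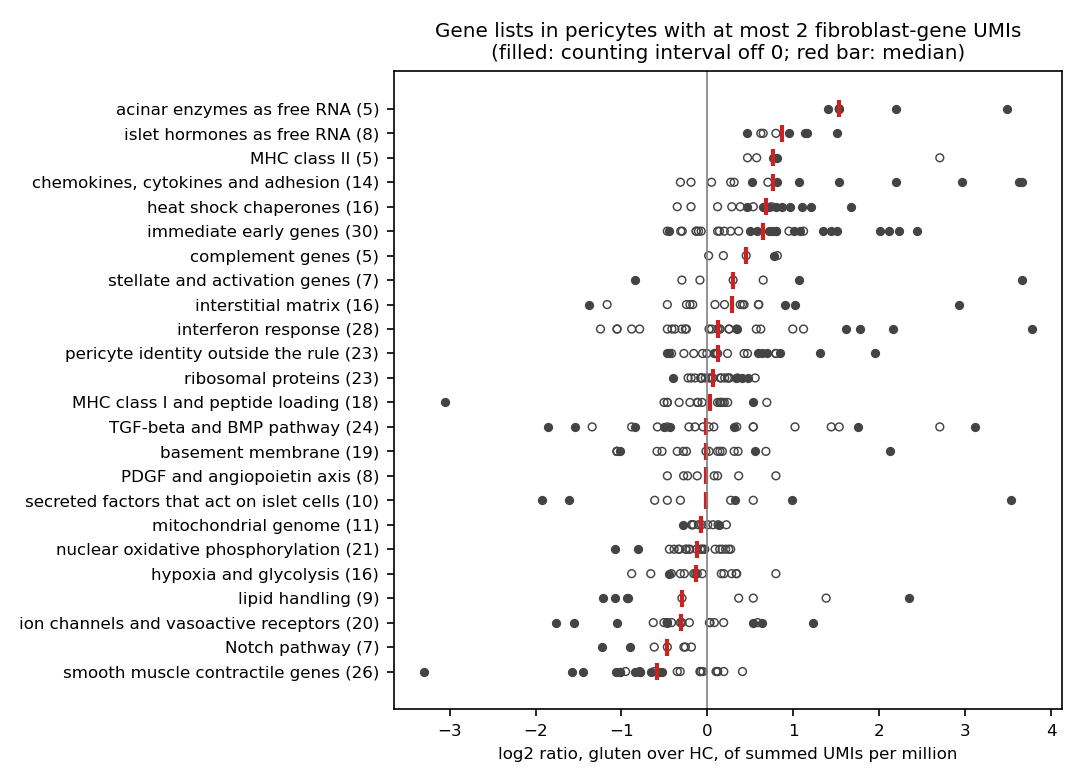
Each point is a gene of the list named at left (number measured in brackets), at its log2 ratio of gluten over HC in core pericytes; filled points have a counting interval off 0 and red bars are medians. Among the lists with at least 5 measured genes, those with a median above 0.6 were acinar and hormone transcripts, MHC class II, chemokines, heat shock chaperones and immediate early genes, and the smooth muscle contractile genes lie lowest at -0.59.

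Contractile genes were lower with gluten in the core. Of 26 measured, 21 were lower, 12 with the interval below 0 and none above, and the median log2 ratio was -0.59. Des, a gene of the rule, is among the 26. Of all 4785 core genes, 5.33% lay below and 5.08% above. Acta2 had 501 UMIs with gluten and 651 with HC, 2991 and 5371 CPM (-0.84, -1.02 to -0.67), Tagln had 483 and 705 (-1.01, -1.18 to -0.84), and Myh11 had 111 and 240 (-1.58, -1.92 to -1.25). Pln, phospholamban, which regulates the calcium pump of muscle, had 10 UMIs in 3 cells with gluten and 71 in 12 cells with HC (-3.29, -4.42 to -2.33). Scn4b, a sodium channel subunit, had 1 and 21 (-4.86, -10.23 to -2.22), Palld, an actin-binding protein, 12 and 39, and Rcan2, Ppp1r12b, Map3k20 and Rergl were among the lowest too, with 10, 11, 18 and 6 UMIs with gluten and 31, 30, 42 and 20 with HC. Map3k7cl had 37 and 74, and Dstn 100 and 191 (-1.40, -1.76 to -1.04).

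Contractile cells were 8 of 60 core cells with gluten and 10 of 31 with HC, and their part in these values cannot be tested by leaving them out, since Acta2, Tagln and Myh11 chose them. In quiet cells, as a description, the list's median was -0.04, and the log2 ratio was -0.03 for Acta2, -0.01 for Dstn, -1.39 for Myh11 and -0.92 for Tagln. Pln, with few UMIs in quiet cells, stood at -2.14. With Rgs5, Kcnj8 and Ndufa4l2 at 6 or more UMIs, the core's list median was -1.09, and Pln stood at -6.45, Palld at -3.95, Myh11 at -2.45, Dstn at -2.17 and Tagln at -1.92. Over the whole rule the list's median was 0.03, with Acta2 at -0.08 (-0.22 to 0.06), Tagln at -0.27 (-0.39 to -0.14) and Myh11 at -0.47 (-0.79 to -0.17). Igfbp5, an insulin-like growth factor binding protein, had 75 and 166 UMIs in the core (-1.61, -2.03 to -1.21) and a log2 ratio of -0.69 in quiet cells. In endothelial cells it was higher with gluten, at 21.4 against 2.18 CPM.

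**Figure D5:**
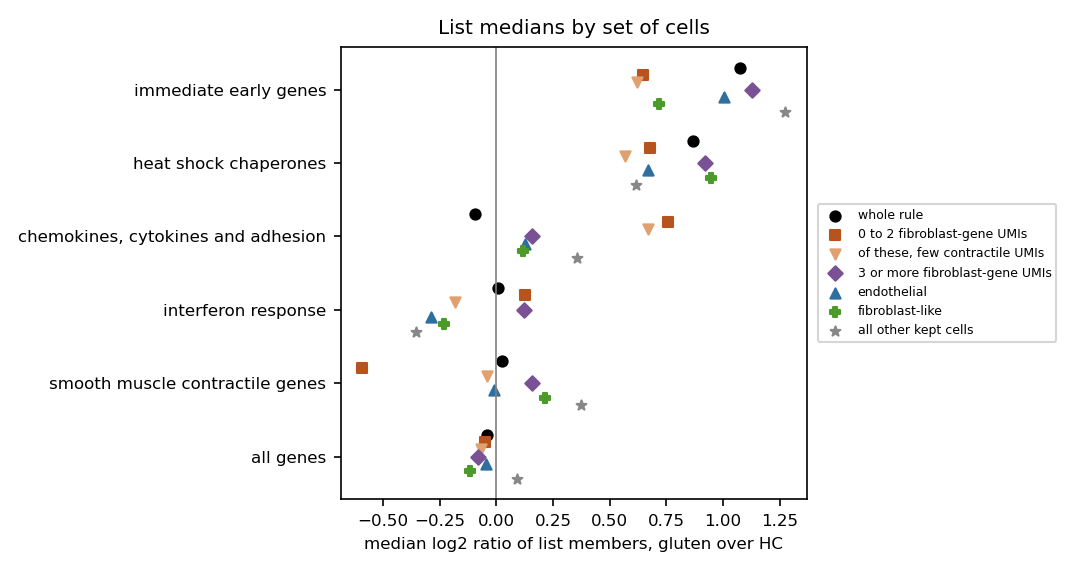
Median log2 ratio of gluten over HC of 5 gene lists and of all genes (rows) in 7 sets of cells (symbols). Immediate early and heat shock lists lie above 0.5 in every set, while the contractile list lies at -0.59 in core pericytes and between -0.04 and 0.37 in the other sets.

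The other groups had medians between -0.47 and 0.45 where 5 or more genes were measured. Beside the counts below, 5.08% of all 4785 core genes had an interval above 0 and 5.33% below it. Of 23 measured identity genes, 16 were higher with gluten, 6 with the interval above 0 and 2 below, with a median of 0.12, against 0.60 over the whole rule. Vtn was the one furthest from 0 by its interval, with 144 UMIs in 50 cells and 42 in 18 cells (1.31, 0.81 to 1.84); Cspg4 had a log2 ratio of 0.69 (0.00 to 1.42) and Cox4i2 of -0.45 (-0.72 to -0.17). Cspg4 stood at 1.73 (1.04 to 2.46) over the whole rule, and Cox4i2 lay on the other side of 0 there, at 0.63 (0.36 to 0.89). Of 7 Notch genes all were lower with gluten, 2 with the interval below 0, and the median was -0.47; Notch3 itself had -0.19 (-0.58 to 0.21). Over the whole rule the Notch median was 0.028 and Notch3 stood at 0.72 (0.36 to 1.07). Of 20 channels and receptors 8 were higher, 3 above 0 and 4 below, with a median of -0.31, against 0.38 over the whole rule. Serping1, the C1 inhibitor, had 205 and 87 UMIs (0.77, 0.40 to 1.15), and Bgn, biglycan, 206 and 80 (0.90, 0.52 to 1.29). Both lay near 0 over the whole rule, at 0.02 (-0.11 to 0.15) and -0.06 (-0.19 to 0.06). Medians in the core were -0.02 for basement membrane, 0.29 for interstitial matrix, -0.02 for TGF-beta and BMP genes and -0.13 for nuclear oxidative phosphorylation. The 7 measured stellate and activation genes had a median of 0.30, 9 lipid handling genes -0.30 and 4 proliferation genes -0.24. Of 4 transglutaminases, 1 was measured, at 1.65.

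Transcripts of other cells moved with the diet in the core as well. The 15 acinar enzymes together stood at 764 CPM with gluten and 49.5 with HC, and 5 of 60 core cells (8.33%) held 10 or more acinar UMIs with gluten against 0 of 31 with HC, which allows a share of up to 9.68% (3 counts of 31; exact Clopper-Pearson upper bound 11.2%). Hormone genes stood at 17560.0 and 8629.9, and the 8 endothelial markers at 352 and 24.8, of which Plvap held 17 and 3 UMIs, 13 of the 17 in 1 cell. Macrophage markers had 5 and 5 UMIs and T cell markers 3 and 8. Leaving out the cells with acinar transcripts left the contractile, chemokine and immediate early medians on their side of 0. The part of free RNA in the genes that differ was not tested.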

How the data were processed

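Islets were prepared by collagenase perfusion through the bile duct, a density gradient, handpicking and trypsin-EDTA, and libraries by the 10x 3′ v3 protocol, per the labels' protocols. Cell Ranger 4.0.0 and mm10 are named per the submitters' processing notes. The authors deposited 1 matrix of raw counts (UMIs per gene and barcode) per library. The sources used here give neither the barcode calling nor the release of the annotation.

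For each set of cells, summed UMIs were divided by the set's total and given as CPM (per 1000000). Log2 ratios are gluten over HC with exact conditional binomial 95% intervals. Against 0 a floor of 3 counts per library was used. Shares have Clopper-Pearson and differences Newcombe intervals. All cover counting error only, since a diet is 1 library. A gene was measured for the 2-fold rule at 20 UMIs in the higher library, and for lists at 10 UMIs over both libraries. The genes named between diets were the 12 in each direction, outside acinar, hormone and mitochondrial genes, whose interval bound nearer 0 was farthest from 0; enriched genes were the 20 with the highest ratio to all other kept barcodes, and many list examples were chosen after their values were seen. Endothelial cells had at least 3 UMIs of Pecam1 and Cdh5 and at most 1 of Pdgfrb, Des, Kcnj8 and Ndufa4l2; fibroblast-like cells had at least 3 of Dcn, Lum and Pdgfra and at most 2 of Rgs5, Kcnj8 and Ndufa4l2. No barcode was removed as a doublet in the main values. The members and lists were chosen with earlier results of these data known, and the core, carrier, contractile and quiet sets were added after the data were seen. Interval and ratio code was tested on simulated data. Python 3.11.15, numpy 2.4.6, scipy 1.17.1, pandas 2.3.3 and scanpy 1.11.5 were used. Some genes are not reported here.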

Additional observations from a re-analysis of the deposited data

How the results depend on the processing

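No paired analysis was possible because each diet is 1 library. Share differences (gluten minus HC) were 0.852 points for the rule and 0.908 for the core among barcodes under 10% hormone UMIs, and -7.07 and 0.962 among pericytes, endothelial and fibroblast-like cells together. Over the rule, genes 2-fold higher numbered 65 of 1734 at 50 UMIs and 2348 of 14001 at 1 UMI. Genes 2-fold lower numbered 51 of 1734 and 2063 of 14001. They were 144 of 3184 with 0 endothelial, T cell, C1q and Ptprc UMIs, and 83 of 1433 in the core. At 1 UMI, the floor of 3 counts can exceed the count it is set against. In the core, higher genes numbered 31 of 473 and 1807 of 11744 at those minimums, and lower genes 24 of 473 and 3055 of 11744. Lower genes were 54 of 1299 at no more than 10% mitochondrial UMIs and 19 of 1008 in quiet cells.

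List medians that moved from the rule to the core were identity genes (0.12), contractile (-0.59), channels (-0.31), interstitial matrix (0.29), immediate early (0.65), MHC class II (0.77), chemokines (0.76), complement (0.45) and acinar enzymes (1.53). Core medians that changed sign from rule intervals off 0 were MHC class I (0.028), hypoxia (-0.13), mitochondrial genome (-0.070) and ribosomal proteins (0.063). The contractile, channel, Notch, MHC class II and chemokine medians changed sign too, from rule intervals that contained 0. Ccl21a changed sign to a log2 ratio of 2.20 in the core, with 18 of 19 UMIs in 1 cell. All of these sign changes rest on leaving out the carriers. With Rgs5, Kcnj8 and Ndufa4l2 at 6 or more, medians over the rule were -0.29 for contractile genes, -0.31 for interstitial matrix, 2.54 for metallothioneins and -0.27 for ribosomal proteins. With 0 UMIs of endothelial, T cell, C1q genes and Ptprc they were 0.83 for immediate early genes, -0.21 for chemokines and 0.080 for the mitochondrial genome. The mean of per-cell values gave 0.38 for identity and -0.22 for contractile genes. Median-of-ratios scaling, which moved all genes to 0.06 in the rule and -0.14 in the core, gave -0.053 for MHC class I and -0.025 for ribosomal proteins. In the core, MHC class II medians reversed to -1.23 at no more than 10% mitochondrial UMIs and to -0.12 as a per-cell mean, and complement to -0.087 in quiet cells; the cause was not tested.

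At least 2000 UMIs per cell, hormone UMIs below 5%, leaving out acinar carriers or the 6% highest Scrublet scores (a doublet score) and totals without hormone, acinar and mitochondrial genes moved none of the shares, gene counts and list medians of the rule past their limits; without the highest Scrublet scores Cxcl9 in the core had a log2 ratio of 1.21. Depth limits genes with under 20 UMIs over 60 and 31 cells.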
